A study of Mus musculus with 6 samples.

Results

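Acyl-CoA thioesterases cut the bond between a fatty acyl chain and coenzyme A and release a free acid and CoA. The Acot genes encode such enzymes in the cytosol, in mitochondria and in peroxisomes, where they set how much acyl-CoA is left for oxidation or lipid synthesis and how much CoA is free. Several of them are textbook PPARA targets, induced in the fasting liver by this receptor for fatty acids. The family studied here has 9 genes, Acot1, Acot2, Acot3, Acot4, Acot5, Acot7, Acot8, Acot12 and Acot13, of 18820 genes tested. A gene was taken from the probe sets annotated to that symbol alone, and 8 of the 9 had one, with 1 such probe set each. Acot8, a peroxisomal thioesterase of broad chain length, had 2 probe sets in the annotation, both shared with the gene Snx21, and therefore has no value here.

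Liver RNA of 6 mice on a C57BL6 background, all 2 months old, was measured on Affymetrix arrays, 1 array per mouse. The 4 Pcyt2+/- mice are replicates 1 to 4, called knock-out in the sample titles although the genotype field gives a heterozygote, and the 2 wild type mice are replicates 3 and 4. Pcyt2 makes CDP-ethanolamine for the synthesis of phosphatidylethanolamine. The sources used here give neither sex nor feeding state at collection. Values are the authors' RMA log2 signals, differences are Pcyt2+/- minus wild type, and the comparison asked which thioesterases differ when Pcyt2 is deficient.

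Across the series, 94.4% of probe sets had a mean log2 signal between 4 and 5, a band in which low signals are compressed, and 4.21% of genes had a mean above 5. Array medians ran from 4.397 to 4.403. Pcyt2 lay between 4.604 and 4.669 on the Pcyt2+/- arrays and at 4.796 and 4.887 on the wild type arrays (difference -0.20, limma adjusted p = 0.264). All 8 hepatocyte markers had a mean above 5, and their mean signal was 9.83 to 10.02 on the Pcyt2+/- arrays against 10.17 and 10.22 on the wild type arrays, with 0 of 8 passing limma (smallest adjusted p = 0.219). The difference of that mean signal was -0.25, with every Pcyt2+/- array below both wild type arrays. Alb (-0.042) and Fabp1 (-0.13) had smaller differences than this mean, so other markers had larger ones and the shift was uneven. Fabp1 is also on the PPARA list used below. The part of these markers in the thioesterase values was not tested. Markers of Kupffer cells, endothelial cells, cholangiocytes, adipocytes, skeletal muscle and pancreas all stayed in the low band, as did 4 of 5 stellate cell markers, the exception being Dcn. In whole liver, fewer cells of a type and less RNA per cell cannot be told apart.

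Of the family, 5 members lie next to one another on chromosome 12 in the RefSeq gene table of GRCm38.p6, in the order Acot2, Acot1, Acot4, Acot3 and Acot5, followed by Acot6. The 250 bases before the transcription start are printed for 4 members, from RefSeq: Acot1, where the groups did not overlap, Acot2, which had the largest difference, Acot4, the cluster gene with the nuclear receptor motif AGGTCA near its start, and Acot12, the member with a mean signal above 5. That motif, in either orientation, is in capitals.
Acot1, chr12:84009252-84009501, + strand: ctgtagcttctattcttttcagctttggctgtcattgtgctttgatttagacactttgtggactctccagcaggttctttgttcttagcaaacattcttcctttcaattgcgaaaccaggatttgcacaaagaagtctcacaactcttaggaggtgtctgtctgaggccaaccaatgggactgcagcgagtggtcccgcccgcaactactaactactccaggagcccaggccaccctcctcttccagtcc
Acot2, chr12:83987611-83987860, + strand: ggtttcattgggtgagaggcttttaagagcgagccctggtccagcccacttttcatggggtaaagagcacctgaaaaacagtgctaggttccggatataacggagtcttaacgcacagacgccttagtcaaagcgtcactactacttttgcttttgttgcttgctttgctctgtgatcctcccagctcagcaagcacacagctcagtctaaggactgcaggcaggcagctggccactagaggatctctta
Acot4, chr12:84038129-84038378, + strand: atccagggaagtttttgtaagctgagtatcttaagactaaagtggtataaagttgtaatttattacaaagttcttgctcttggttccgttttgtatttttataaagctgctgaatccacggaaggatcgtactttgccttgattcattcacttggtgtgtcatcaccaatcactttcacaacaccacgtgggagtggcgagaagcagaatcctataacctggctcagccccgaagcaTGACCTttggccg
Acot12, chr13:91741271-91741520, + strand: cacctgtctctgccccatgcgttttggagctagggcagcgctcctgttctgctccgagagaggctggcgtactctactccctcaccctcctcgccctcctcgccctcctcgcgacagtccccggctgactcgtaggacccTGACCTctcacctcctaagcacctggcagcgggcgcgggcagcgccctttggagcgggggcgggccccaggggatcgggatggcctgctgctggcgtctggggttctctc
PPARA, together with RXR, binds paired copies of this motif with 1 base between them. The full pair AGGTCANAGGTCA, on either strand, was in 0 of the 8 member genes with a promoter in the table (Acot13 had none there) and in 0.0335% of all 32851 promoter windows of 250 bases. The looser AGGNCANAGGNCA was in 0 of 8 and in 0.338% of all windows. The single motif was in 3 of 8, namely Acot4, where it begins 13 bases before the start, Acot12, where it begins 110 bases before it, and Acot5, against 14.0% of all windows. A member gene counted if any of its windows matched, and Acot3 and Acot5 had more than 1. The share of all windows is therefore no direct measure for the count of genes. These hits are matches of letters in a short window and say nothing of binding.

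No thioesterase passed the test between Pcyt2+/- and wild type liver, and the differences were small on the deposited scale. Of the 8 measured members 6 had a lower mean in Pcyt2+/- liver (51.9% of all genes did), and 2, Acot5 and Acot7, had a higher one (48.1%). The median difference was -0.024, against -0.00073 over all genes. By limma 0 of 8 passed, with adjusted p from 0.694 to 0.995, and 0 of 18820 genes (0%) did, with a smallest adjusted p of 0.130. At an unadjusted p under 0.05 limma gave 1 of 8 lower and 0 of 8 higher, against 3.44% and 1.86% of all genes, or 648 and 350 genes. The groups did not overlap for 1 of 8, Acot1, which was lower, against 7.17% of all genes lower and 5.67% higher without overlap. With 8 members, 1 is close to what that share gives.

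**Figure D1:**
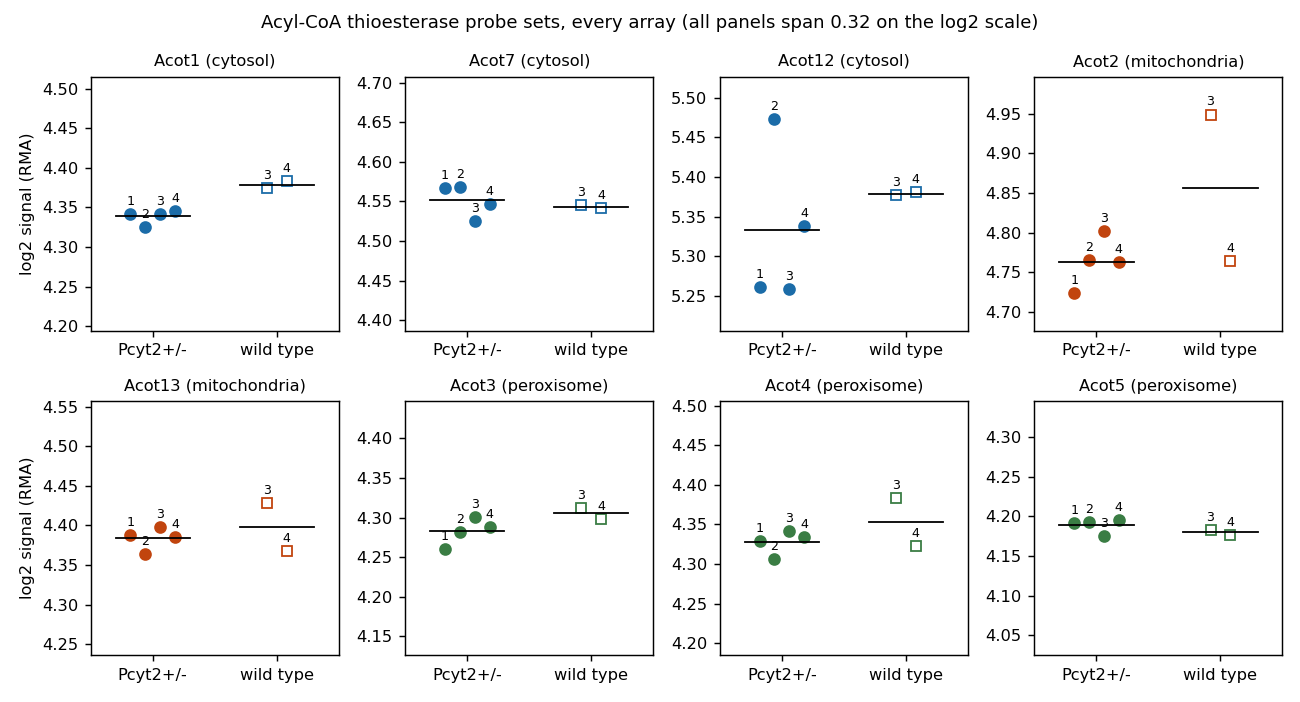
Log2 signal of the 8 measured thioesterases on every array, with filled circles for the 4 Pcyt2+/- mice, open squares for the 2 wild type mice, replicate numbers beside the points and lines at the group means. All panels span the same range. Only for Acot1 do all Pcyt2+/- arrays lie below both wild type arrays, and wild type replicate 3 is the highest of the arrays for Acot2, Acot13, Acot3 and Acot4.

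Among the cytosolic enzymes, Acot1 was the 1 member whose groups separated. Acot1 cuts long-chain acyl-CoA and is a PPARA target that fasting induces. In the Pcyt2+/- mice, replicates 1 to 4 had log2 signals of 4.342, 4.325, 4.342 and 4.346. In wild type, replicate 3 had 4.374 and replicate 4 had 4.384. All 4 Pcyt2+/- arrays were below both wild type arrays, with a gap of 0.028 between the groups. Mean signals of 4.34 ± 0.0091 (SD, n = 4) in Pcyt2+/- and 4.38 ± 0.0069 (SD, n = 2) in wild type differed by -0.040 (SE 0.011, 95% interval -0.065 to -0.015). Limma's adjusted p over the whole table was 0.694, so the gene was not called, with an unadjusted p of 0.0070. The two-sided exact permutation test over 15 splits gave p = 0.0667, the smallest that 4 against 2 arrays allow. Acot1 stood 191st of 18820 genes by limma's p, and 65.7% of genes had a higher mean signal than its 4.35.

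Acot12, which hydrolyses acetyl-CoA in the cytosol and is known as a liver enzyme, was the 1 member with a mean above 5. Its signal was 5.262, 5.474, 5.259 and 5.338 on the Pcyt2+/- arrays and 5.377 and 5.381 on the wild type arrays. Pcyt2+/- replicate 2 was the highest of all arrays and the other Pcyt2+/- arrays were below both wild type arrays, so the groups overlapped. The means were 5.33 ± 0.10 (SD, n = 4) and 5.38 ± 0.0028 (SD, n = 2). The difference of -0.046 had a 95% interval of -0.18 to 0.093 (limma adjusted p = 0.986). On the deposited scale this interval reaches from a 1.14-fold higher signal in wild type to a 1.07-fold higher signal in Pcyt2+/-. Without Pcyt2+/- replicate 2 the difference was -0.093 (limma adjusted p = 0.978).

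Acot7, a cytosolic long-chain thioesterase best known from brain, had 4.567, 4.568, 4.525 and 4.547 on the Pcyt2+/- arrays. The wild type arrays, at 4.545 and 4.541, lay inside that range. The difference was 0.0090 with a 95% interval of -0.026 to 0.044 (limma adjusted p = 0.995). Of the 3 cytosolic members 2 had a lower mean, and their median difference was -0.040.

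Of the mitochondrial enzymes, Acot2 had the largest difference of the family, and it rested on 1 wild type array. Acot2 is the long-chain thioesterase of the mitochondrial matrix. Its signal was 4.724, 4.766, 4.802 and 4.763 on the Pcyt2+/- arrays and 4.949 and 4.764 on the wild type arrays. Wild type replicate 3 stood above all others, while wild type replicate 4 lay in the middle of the Pcyt2+/- arrays. The wild type arrays were 0.19 apart, more than the difference of the means, which was -0.093 (SE 0.048, 95% interval -0.21 to 0.021, limma adjusted p = 0.945). The two-sided exact permutation test over 15 splits gave p = 0.200. Without wild type replicate 3 the difference was -0.00024, and without wild type replicate 4 it was -0.19 (limma adjusted p = 0.313).

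Because Acot2 lay in the compressed band, its values were also taken after subtracting, on the linear scale, the median signal of each array. They then were 2.41, 2.60, 2.75 and 2.59 for Pcyt2+/- and 3.28 and 2.61 for wild type, again with replicate 3 alone on the high side. The difference grew to -0.36 with a 95% interval of -0.79 to 0.075 (limma adjusted p = 0.674 over 3248 genes). For Acot12 it was -0.10 on that scale, with an interval of -0.42 to 0.22 (limma adjusted p = 0.911). The other 6 measured members had a mean signal under 4.6 and were left out there.

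Acot13, a small thioesterase found at mitochondria and a partner of the phosphatidylcholine transfer protein, showed the same array on the high side. It had 4.388, 4.364, 4.398 and 4.386 on the Pcyt2+/- arrays and 4.429 and 4.367 on the wild type arrays. Wild type replicate 4 lay at the low end of the Pcyt2+/- range. The difference was -0.014 (95% interval -0.059 to 0.031, limma adjusted p = 0.987), and it turned to 0.017 without wild type replicate 3. Both mitochondrial members thus had a lower mean, with a median of -0.053 that was 0.0083 without wild type replicate 3 and -0.12 without wild type replicate 4.

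**Figure D2:**
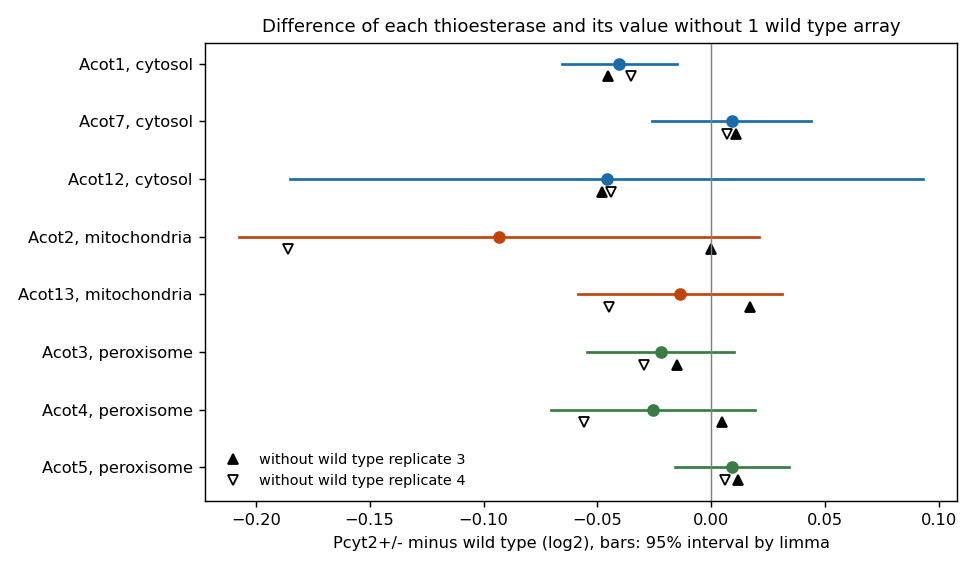
Difference of each measured thioesterase between Pcyt2+/- and wild type liver on the log2 scale (circles), with limma's 95% interval (bars), ordered by compartment. Triangles give the difference without wild type replicate 3 (filled, pointing up) or without wild type replicate 4 (open, pointing down); for Acot2 these are -0.00024 and -0.19, for Acot1 -0.045 and -0.035.

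The peroxisomal enzymes stayed near the floor of the arrays, as did Acot1 and Acot13, with mean signals of 4.35 and 4.39. Acot3, a long-chain thioesterase, had 4.261, 4.282, 4.301 and 4.288 on the Pcyt2+/- arrays and 4.312 and 4.298 on the wild type arrays. All 4 Pcyt2+/- values were below the wild type mean, and the ranges overlapped through replicate 3 of the Pcyt2+/- group. The difference was -0.022 (95% interval -0.054 to 0.0100, limma adjusted p = 0.955).

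Acot4, which hydrolyses succinyl-CoA in mouse peroxisomes, had 4.329, 4.307, 4.342 and 4.334 on the Pcyt2+/- arrays and 4.384 and 4.323 on the wild type arrays. As for Acot2, wild type replicate 3 was the highest and wild type replicate 4 lay among the Pcyt2+/- arrays. The difference was -0.026 (95% interval -0.070 to 0.019, limma adjusted p = 0.956), and 0.0046 without wild type replicate 3. Acot5, a peroxisomal medium-chain thioesterase, had 4.191, 4.193, 4.175 and 4.195 on the Pcyt2+/- arrays. The wild type arrays, at 4.183 and 4.177, lay inside that range, and the difference was 0.0090 (95% interval -0.016 to 0.034, limma adjusted p = 0.979). For Acot5, 96.1% of genes had a higher mean signal. Of the 3 measured peroxisomal members 2 had a lower mean, with a median difference of -0.022. Without wild type replicate 3 this was 1 of 3 with a median of 0.0046, and without wild type replicate 4 it was 2 of 3 with -0.030.

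The mean shift of a compartment was no larger than the distance of either wild type array from the wild type mean for the mitochondrial and peroxisomal enzymes, and 1 Pcyt2+/- array went the other way for the cytosolic ones. Set against the wild type mean of each gene, the average of the cytosolic members was -0.043, 0.022, -0.058 and -0.023 on Pcyt2+/- replicates 1 to 4. For the mitochondrial members it was -0.072, -0.062, -0.027 and -0.053, and for the peroxisomal members -0.019, -0.019, -0.0070 and -0.0070. The wild type arrays themselves lay 0.062 above and below their mean for the mitochondrial pair, 0.014 for the peroxisomal members and 0.0016 for the cytosolic ones. For the mitochondrial pair, Pcyt2+/- replicates 1 and 2 lay slightly below or at wild type replicate 4, and replicates 3 and 4 above it. Differences between compartments were not tested.

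Wild type replicate 3 was the highest of the 6 arrays for 4 of the 8 members, against 20% of all genes, a pattern looked for after the values were seen. The 4 were Acot2, Acot3, Acot4 and Acot13, from mitochondria and peroxisomes. For 3 of the 8, Acot2, Acot4 and Acot13, the wild type arrays were further apart than the group means, which held for 66.1% of all genes. Without wild type replicate 3 the count of members with a lower mean was 4 of 8 and the median difference 0.0022, while 47.2% of all genes had a lower mean. Without wild type replicate 4 the count was 6 of 8 and the median -0.040, with 55.2% of all genes lower.

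Along the chromosome 12 cluster the differences were -0.093 for Acot2, -0.040 for Acot1, -0.026 for Acot4, -0.022 for Acot3 and 0.0090 for Acot5. Acot6, a peroxisomal relative at the end of the cluster that is no member here, followed with 0.029. Its 4 Pcyt2+/- arrays, at 4.396 to 4.421, were all above the wild type arrays at 4.382 and 4.371 (limma adjusted p = 0.913). The order along the chromosome depended on the wild type arrays. Without wild type replicate 4 only Acot1 and Acot4 changed places, and without wild type replicate 3 Acot2, Acot1, Acot4 and Acot3 all did. Without wild type replicate 3 the same 6 genes had -0.00024, -0.045, 0.0046, -0.015, 0.012 and 0.034, and without wild type replicate 4 they had -0.19, -0.035, -0.056, -0.030, 0.0061 and 0.024. The flanking genes Riox1 and Dnal1 had -0.010 and -0.0068. These genes are close relatives, and whether a probe set also binds the transcript of a neighbour was not tested.

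**Figure D3:**
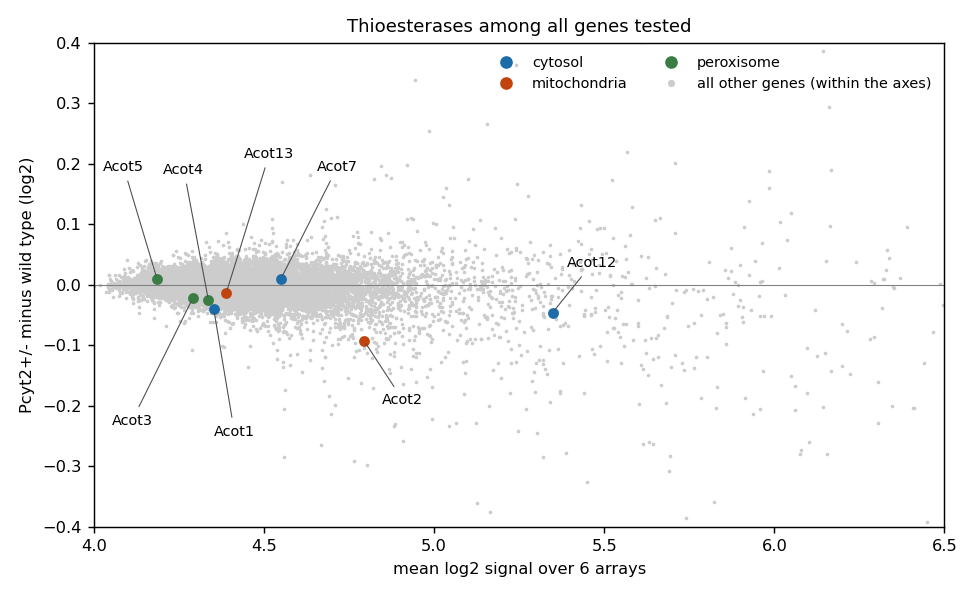
Difference between Pcyt2+/- and wild type liver against the mean log2 signal over the 6 arrays, for all genes (grey) and the 8 measured thioesterases (coloured by compartment). Genes outside the axes are not drawn. Acot12 is the 1 member to the right of 5, and 1.94% of genes had a larger absolute difference than Acot2.

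Acyl-CoA genes around the thioesterases were read from lists chosen with earlier results known. Over all genes, 51.9% had a lower mean, and an unadjusted p under 0.05 was seen for 3.44% on the lower and 1.86% on the higher side. Among 12 measured genes of other acyl-CoA thioesterases, 10 had a lower mean, 0 passed limma over all genes, 1 was lower and 2 were higher at an unadjusted p under 0.05, and the median difference was -0.015. These 3 were Fasn, the fatty acid synthase, which ends in a thioesterase domain (-0.075, limma adjusted p = 0.675), Ppt1, the lysosomal palmitoyl-protein thioesterase (0.045, adjusted p = 0.869), and Acot6. Baat, which conjugates bile acids from their CoA esters, had -0.054 (limma adjusted p = 0.945). Among 20 measured acyl-CoA synthetases, the enzymes that make the thioesterases' substrate, 11 had a lower mean, 0 passed limma, 3 lower and 0 higher genes had an unadjusted p under 0.05, and the median was -0.0055. They were Acsf2 (-0.073), Acsm4 (-0.047) and the fatty acid transport protein Slc27a1 (-0.032), with limma adjusted p from 0.758 to 0.930.

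Genes of CoA supply, CoA breakdown and acyl-CoA binding had a median of -0.0096 over 22 genes, with 15 of 22 lower in mean, 0 that passed limma and an unadjusted p under 0.05 for 2 lower and 0 higher genes. Pank1, the pantothenate kinase that opens CoA synthesis, had 5.446, 5.524, 5.449 and 5.440 on the Pcyt2+/- arrays and 5.575 and 5.606 on the wild type arrays. The groups did not overlap, and the difference was -0.13 (limma adjusted p = 0.511). Dbi, the acyl-CoA binding protein, had -0.18 (limma adjusted p = 0.913). Nudt7, which breaks down CoA in peroxisomes, had the largest difference of that list in the other direction, 0.32 (limma adjusted p = 0.936). Its wild type arrays were at 6.209 and 6.759, further apart than the group means, and the difference was 0.046 without wild type replicate 3.

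Peroxisomal partners and a list of PPARA and its targets had larger median differences than the thioesterases in the same livers. These lists were also brighter. A mean signal above 5 was found for 8 of 16 partners and 9 of 16 genes of the PPARA list, against 1 of 8 thioesterases. The gap in medians narrowed without wild type replicate 4 and widened without wild type replicate 3. The PPARA list also holds the regulators Rxra, Ppargc1a and Hnf4a. The 16 measured peroxisomal partners had a median of -0.083, with 14 of 16 lower in mean, 0 that passed limma, and an unadjusted p under 0.05 for 7 lower and 1 higher genes. Against these counts stand 51.9% of all genes with a lower mean, and 3.44% lower and 1.86% higher at that p. The median was -0.054 and 12 of 16 were lower in mean without wild type replicate 4. Crat, a carnitine acetyltransferase, had -0.23 (limma adjusted p = 0.219), Abcd3, a peroxisomal transporter of acyl-CoA, -0.17 (adjusted p = 0.311), and Ehhadh, of peroxisomal beta-oxidation, -0.51 (adjusted p = 0.529). The 16 measured genes of the PPARA list had a median of -0.13, with 15 of 16 lower in mean, 0 that passed limma, and an unadjusted p under 0.05 for 8 lower and 0 higher genes. The median of this list was -0.054 and 11 of 16 were lower in mean without wild type replicate 4, beside the -0.040 of the thioesterases in that fit. Without wild type replicate 3 the list median was -0.14 and 16 of 16 were lower, beside 0.0022 for the thioesterases. Cyp4a14, a fatty acid omega-hydroxylase and PPARA target, had -2.56, its relative Cyp4a31 -1.15, and Acadl, the long-chain acyl-CoA dehydrogenase, -0.14 (limma adjusted p from 0.130 to 0.176). Cpt1a had -0.20 (limma adjusted p = 0.511) and Ppara itself -0.051 (limma adjusted p = 0.956). For Ppara the difference was -0.015 without wild type replicate 4 and -0.086 without wild type replicate 3. Acot1, with -0.040, and Acot2, with -0.093, had the same sign, for Acot2 through wild type replicate 3 alone. Of the 8 measured thioesterases 6 had this sign and 2, Acot5 and Acot7, did not, against 51.9% of all genes with it. Whether the thioesterases differ from these lists was not tested, and signal in the low band understates a difference.

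**Figure D4:**
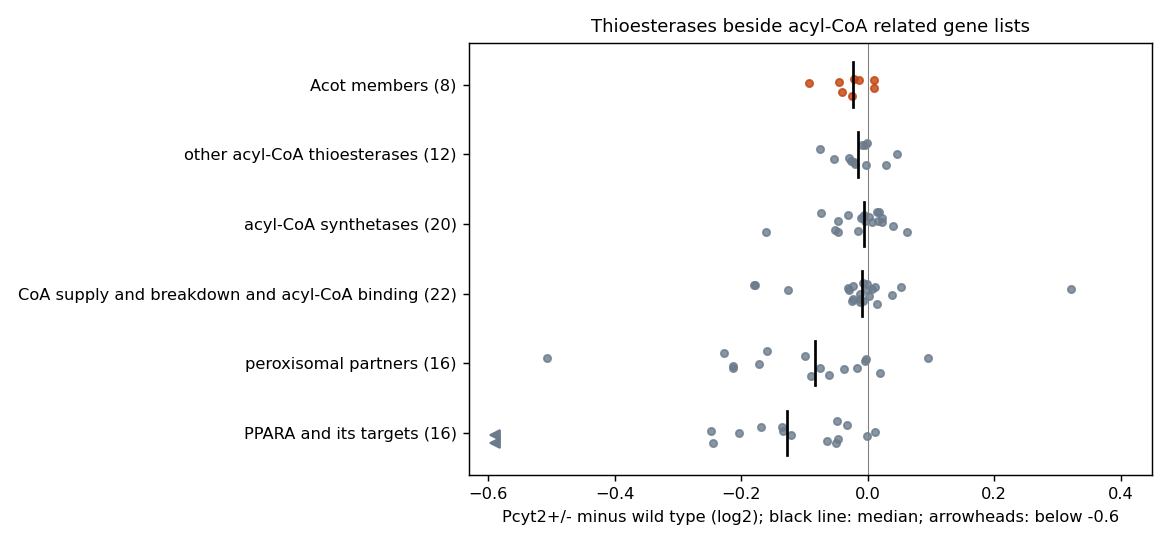
Differences between Pcyt2+/- and wild type liver on the log2 scale for the 8 measured thioesterases and the measured genes of 5 related lists, 1 point per gene, with black lines at the medians and arrowheads for Cyp4a14 and Cyp4a31, which lie beyond the axis. The thioesterase median is -0.024, that of the PPARA list -0.13.

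Acot12 had the largest spread over the 6 arrays of any measured member (SD 0.081), and the genes with the most similar array profile were sought by the root mean square distance between profiles centred on their own mean. The 5 nearest genes outside the family, passing over predicted genes and clones, were Ctsl, a lysosomal protease (0.032), Prxl2a (0.036), Slc8b1, a mitochondrial sodium-calcium exchanger (0.037), Alyref2 (0.037) and Ak4, a mitochondrial adenylate kinase (0.039), all on the log2 scale over 6 arrays. All of them shared the high value of Pcyt2+/- replicate 2, where Ctsl had 5.942 and Prxl2a 5.314. The genes were picked for this likeness among 18820, so nothing about shared function follows.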

How the data were processed

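Total RNA of snap-frozen liver was hybridised to 1 Affymetrix array per mouse. The deposited values are log2 signals of probe sets. The authors obtained them with RMA, as the submitters' processing notes state, and neither its version nor a genome build was given in the sources used here. The table held 28996 probe sets without missing values. Of these 21218 carried 1 symbol, 1881 carried more and 5897 are unnamed here, and 21185 matched the RefSeq table of GRCm38.p6 by gene identifier. Where a gene had several probe sets, the brightest on average represented it, giving 18820 genes. The test was limma 3.58.1 under R 4.3.3 (lmFit, eBayes, two-sided, no covariates, Benjamini-Hochberg adjustment over 18820 genes, threshold 0.05), checked on simulated data, with two-sided exact permutation tests beside it for members. The simulated shifts were far larger than any member's difference, so that check does not show whether limma finds differences of this size. Other steps used Python 3.11.15. The number of arrays limits the precision. Limma's p-values set a difference against the spread between these mice, with the variance partly shared across genes.

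Members, lists and alternatives were chosen with earlier results of these data known. Compartments were assigned from general knowledge of the enzymes. All 9 members were named; from each list the genes with an adjusted p under 0.05, otherwise the 3 with the smallest unadjusted p, and Ppara, Hnf4a, Cyp4a14, Cpt1a, Baat, Acsl1 and Pcyt2, with 1 further gene that is not reported here. Hnf4a, a hepatocyte nuclear receptor, had a difference of -0.25 (limma adjusted p = 0.952). For Hnf4a it was 0.038 without wild type replicate 4 and -0.53 without wild type replicate 3. Acsl1 was not analysed here. Alternatives were another row rule, quantile normalization, median centring, subtraction of the median signal, a filter on dim genes, every row, another variance prior, weights per array, a block on the replicate number and omission of each array.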

Additional observations from a re-analysis of the deposited data

Results flagged for a closer look

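Of 28 genes whose 4 Pcyt2+/- values were examined for a single distant array, the thioesterases among them, 1 had one. Pank1 had 5.524 on the array of Pcyt2+/- replicate 2, with the other 3 between 5.440 and 5.449, so that the gap took up 0.895 of the range. Chance marks about 1 in 20 such groups.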

How the results depend on the processing

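In 107 values of the 8 measured thioesterases over all alternatives, 104 kept their direction, 3 turned and 0 passed limma, with a smallest adjusted p of 0.313. The number of members that passed was 0 under each alternative. The 104 include values that could not turn. With 1 probe set per member, another row rule, every row, another variance prior and the filter on dim genes leave its difference unchanged. The 3 that turned were Acot7 with the replicate block (-0.0068), and Acot4 and Acot13 without wild type replicate 3. Over the fits without 1 array Acot4 ranged from -0.056 to 0.0046 and Acot13 from -0.045 to 0.017. The median difference of the members was -0.013 with the replicate block and ranged from -0.040 to 0.0022 over the fits without 1 array, where 4 to 6 of 8 members had a lower mean. The number of genes called over the whole table was 3 with the median signal subtracted, 3 among genes with a mean above 5, 9 with a trended and robust prior, 2 with the replicate block, and 0 to 9 over the fits without 1 array; the cause was not tested. The block used the 4 arrays numbered 3 and 4, and without it the same arrays gave 1 called gene. The numbers name separate mice. The difference between replicates 3 and 4 correlated at 0.14 across genes between the groups. No other pairing of arrays was computed beside it, so this value cannot decide whether the numbers pair samples. The median over members was not computed under the 2 settings that leave out dim genes. Fits without a wild type array leave 1, which is assumed to vary like the Pcyt2+/- arrays. Low signal limits most members.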
